A study of Mus musculus with 50 samples.

Results

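The genes described here encode ion channels that microglia or macrophages are known to use: the potassium channels Kcnk6, Kcnk13, Kcna3, Kcnj2 and Kcnn4, the proton channel Hvcn1, the TRP cation channels Trpv2, Trpm2 and Trpm7, and the chloride channel protein Clic1. They were chosen by symbol, and all 10 were found among the 53700 genes counted. All 10 also passed the filter on low counts, which left 16696 genes for testing. The data are poly-A RNA sequencing libraries of CD45int CD11b+ microglia sorted from the hippocampus of 50 male C57BL/6J mice, with 1 library per mouse. Early-life stress (ELS) was a shortage of bedding and nesting material from postnatal day (P) 2 to P9, and control (CTR) litters had standard material. At P9 there were 12 CTR and 13 ELS mice without injection. Adult mice at P200 received an intraperitoneal injection of PBS or of 1 mg/kg LPS, a bacterial cell wall component, 3 hours before the cells were taken. These adult groups were CTR-PBS (n = 7), ELS-PBS (n = 6), CTR-LPS (n = 7) and ELS-LPS (n = 5). Each nest had a single early-life condition, so nest and condition overlap. Mice are named here as in their labels, with age, mouse number, condition and treatment. The adult tissue was passed over a Percoll gradient and the P9 tissue was not, so that age and this step cannot be told apart.

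Ion channels set the membrane potential of microglia and the ion fluxes that drive their surveillance and cytokine release. Tandem-pore and inward-rectifier potassium channels hold the resting potential, voltage-gated and calcium-activated potassium channels are best known from activated cells, and potassium leaving the cell is a trigger of the NLRP3 inflammasome. Proton efflux through Hv1 balances the charge moved by the NADPH oxidase, and TRP channels admit calcium and other cations in response to oxidation, mechanical stimuli or phagocytic signals.

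Libraries held from 5152838 to 42231258 counts per mouse. Levels are given in CPM, which are counts scaled to a common library size, with library sizes scaled by edgeR's TMM method. A gene was called when its adjusted p was under 0.05 (edgeR's quasi-likelihood test with Benjamini-Hochberg adjustment over the 16696 genes), and a called gene with an absolute log2 fold change above 1 was counted as a differentially expressed gene (DEG). The 10 microglia markers summed to a median of 54642 CPM in P9-CTR and 85068 CPM in CTR-PBS, and none of them was at 0 in a group. In P9-ELS the sum was at least 49015 CPM, but some single markers had a mouse far below the median. The lowest values there were 180 CPM for Tmem119 (median 2260), 1073 CPM for Cx3cr1 (median 7202) and 630 CPM for Csf1r (median 8336). After LPS, Il1b, Tnf, Nfkbia and Ccl3 rose in both conditions (4 of 4 each). Some libraries, 1 or 2 per group in 4 groups, had fewer than 17000 genes with a count: mice P9_19.2_ELS (15731 genes), P9_19.3_ELS (12482), P200_1.1_CTR_PBS (12854), P200_20.2_ELS_PBS (16485) and P200_2.2_ELS_LPS (16913). Counts of called genes are given with and without these libraries. In bulk libraries, fewer cells of a type and less RNA per cell cannot be told apart.

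The channel genes covered a wide range of levels in every group. Per kilobase of exon, Clic1, a chloride intracellular channel protein that exists in soluble and membrane forms, was highest in each of the 6 groups, with 282 ± 23.0 CPM per kb in P9-CTR (SD, n = 12) and 168 ± 14.6 CPM per kb in CTR-PBS (SD, n = 7). Its mice did not overlap with those of the next gene, Hvcn1, in any group. Hvcn1 and Kcnk13 could not be ordered at P9, where Hvcn1 was above Kcnk13 in 7 of 12 CTR and 6 of 13 ELS mice. In ELS-PBS, CTR-LPS and ELS-LPS mice the values of these genes did not overlap, and Hvcn1 reached 92.4 ± 22.1 CPM per kb in ELS-LPS against 28.7 ± 6.58 for Kcnk13 (SD, n = 5). Hvcn1 shares 2609 of its 5939 exon bases with the antisense gene Tctn1. The strand setting of the counting is not given, so the level and place of Hvcn1 are uncertain. Trpv2 and Kcnk6 came next by mean in each group, and Trpm7 was below Kcnk6. The remaining genes were lower and changed places between groups. In CTR-PBS, Kcnj2 (3.43 CPM per kb) was above Trpm2 (1.42) and Kcnn4 (0.827), and in CTR-LPS it was at 0.429 CPM per kb, below Trpm2 (1.99) and Kcnn4 (1.21). Kcna3 was last by mean in 5 of the 6 groups, and Trpm2 was last in P9-CTR, where Kcna3 was above it in 7 of 12 mice.

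**Figure D1:**
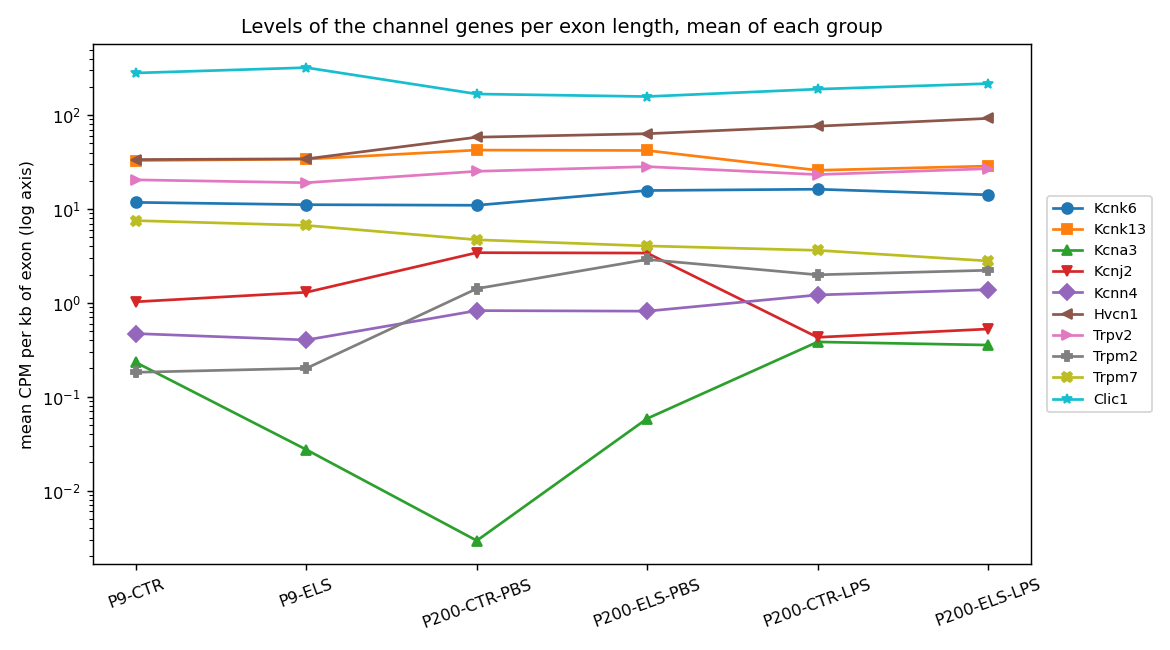
Mean level of each channel gene in CPM per kilobase of exon (log axis) in the 6 groups, with lines joining the means of a gene. Clic1 lies above the other genes in all groups, and Kcnj2 crosses below Trpm2 and Kcnn4 between the PBS and the LPS groups.

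The first question was how the channel genes responded to LPS in adult microglia. Kcnj2, which encodes the inward rectifier Kir2.1, fell 7.93-fold in CTR and 6.42-fold in ELS mice, and Kcnk13, which encodes THIK-1, the tandem-pore channel that carries much of the resting potassium current of microglia, fell 1.64-fold and 1.47-fold. Kcna3, which encodes the voltage-gated channel Kv1.3, rose in CTR mice from nearly no counts. In CTR mice 3 of the 10 channel genes were called (1 higher, 2 lower), against 14.9% of all tested genes, and 2 of these were DEGs, against 9.62%. The higher gene, also a DEG, was Kcna3. It passed the filter only through mice of P9-CTR and CTR-LPS, so its call was not independent of the filter. In ELS mice 2 of 10 were called, both lower, against 12.3% of all tested genes, and 1 was a DEG, against 7.86%. The median log2 fold change of the 10 genes was 0.28 in CTR and -0.11 in ELS mice, beside 0.00 and -0.04 over all tested genes. Without the libraries of few genes, 4 were called in CTR mice, with Trpm7 in addition, beside 3360 of the 16510 genes then tested. In ELS mice 2 were then called, Kcnj2 and Clic1, beside 3006 of 16510 genes.

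Kcnj2 (ENSMUSG00000041695, GRCm39 chr11:110956981-110967665, plus strand) showed the separation most plainly. In CTR-PBS mice its lowest, median and highest values were 12.6, 20.5 and 24.5 CPM, and in CTR-LPS mice 0, 2.52 and 5.51 CPM. The count of 0 in 1 CTR-LPS mouse allows up to 0.216 CPM, taking 3 counts as the limit. The ELS-PBS mice had 15.0, 17.202 and 26.5 CPM as lowest, median and highest value, and the 5 ELS-LPS mice had 1.40, 1.67, 2.14, 2.46 and 6.73 CPM. Every LPS mouse was thus below every PBS mouse of its condition. Groups without overlap were found for 7.49% of tested genes in CTR and 10.0% in ELS mice, and Kcnj2 was the 1 channel gene among them in each. In CTR mice the log2 fold change was -2.99 ± 0.44 (SE; adjusted p = 6.04e-07), and in ELS mice it was -2.68 ± 0.50 (SE; adjusted p = 8.19e-05). Leaving out single mice kept it between -3.35 and -2.77 in CTR and between -3.27 and -2.51 in ELS mice. The highest ELS-LPS value, 6.73 CPM in mouse P200_4.2_ELS_LPS, was the only ELS-LPS value above 2.46 CPM, and without this mouse the log2 fold change was -3.27 (adjusted p = 1.12e-05).

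Kcnk13 (ENSMUSG00000045404, chr12:99924948-100028942, plus strand) was measured at far higher counts. Its lowest, median and highest values were 152, 221 and 247 CPM in CTR-PBS and 106, 122 and 159 CPM in CTR-LPS mice. These groups overlapped at their edges only. In ELS-PBS they were 180, 207 and 232 CPM, and the ELS-LPS mice had 103, 121, 140, 163 and 185 CPM. CTR mice had a log2 fold change of -0.72 ± 0.16 (SE; adjusted p = 0.00106) and ELS mice one of -0.55 ± 0.19 (SE; adjusted p = 0.0397). The ELS call did not survive the omission of any 1 of 8 mice (P200_2.1_ELS_PBS, P200_4.1_ELS_PBS, P200_11.1_ELS_PBS, P200_17.2_ELS_PBS and P200_20.2_ELS_PBS, P200_2.2_ELS_LPS, P200_17.3_ELS_LPS and P200_20.1_ELS_LPS), with log2 fold changes between -0.56 and -0.45 and adjusted p between 0.0506 and 0.140. Without the libraries of few genes it was -0.42 (adjusted p = 0.0562). The CTR call stayed in every alternative.

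Kcna3 (ENSMUSG00000047959, chr3:106943485-106945386, plus strand) was near the limit of detection. Before TMM scaling it reached the filter's 1 CPM only in mice of P9-CTR and CTR-LPS. It was thus tested only through the groups that its calls for LPS and age compare with CTR-PBS. Its counts summed to 1 over the 7 CTR-PBS mice and to 138 over the 7 CTR-LPS mice, of which 85 came from 1 mouse. The lowest, median and highest values were 0, 0 and 0.0389 CPM in CTR-PBS and 0, 0.563 and 2.23 CPM in CTR-LPS. The ratio of the summed levels was 146 (exact interval 25.8 to 5813 for counting error only), and the log2 fold change fitted across mice was 5.92 ± 1.47 (adjusted p = 0.00284). It was 5.31 without mouse P200_1.3_CTR_LPS, which held the 85 counts (adjusted p = 0.00891), and 6.99 without mouse P200_5.2_CTR_PBS, which held the single count (adjusted p = 0.00403). In ELS mice the counts summed to 17 over the 6 PBS mice and to 56 over the 5 LPS mice. The ELS-PBS mice had 0, 0 and 0.414 CPM as lowest, median and highest value, and the ELS-LPS mice had 0, 0.433, 0.795, 1.05 and 1.098 CPM. This difference was not called (log2 fold change 2.54 ± 1.31, adjusted p = 0.223, and 3.47 without mouse P200_11.1_ELS_PBS). Counts of 0 were found in 24 of the 50 mice and allow up to 0.0833 to 0.582 CPM, depending on the library. Kcna3 also shares 524 exon bases with an antisense lncRNA that was not counted, and the strand setting of the counting is not given in the sources used here.

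The sequences upstream of these 3 genes are shown because they are the channel genes that were called after LPS. Each is the 250 bases before a RefSeq start site (GRCm38.p6, plus strand), read 5′ to 3′. Capitals mark the letters GAGGAA, the core that the myeloid factor PU.1 binds, or TTCCTC, the same letters on the other strand.
Kcnj2 (chr11:111065914-111066163): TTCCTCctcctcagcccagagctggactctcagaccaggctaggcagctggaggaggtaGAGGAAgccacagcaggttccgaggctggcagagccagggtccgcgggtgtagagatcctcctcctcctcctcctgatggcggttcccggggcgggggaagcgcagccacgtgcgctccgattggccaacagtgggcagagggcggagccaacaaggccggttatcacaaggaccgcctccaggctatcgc
Kcnk13 (chr12:99964249-99964498): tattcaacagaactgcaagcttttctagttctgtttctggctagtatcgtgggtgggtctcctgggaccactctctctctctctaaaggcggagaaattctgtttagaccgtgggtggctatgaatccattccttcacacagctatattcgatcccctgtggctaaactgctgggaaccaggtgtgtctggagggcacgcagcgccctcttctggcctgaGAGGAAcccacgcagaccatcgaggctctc
Kcna3 (chr3:107035912-107036161): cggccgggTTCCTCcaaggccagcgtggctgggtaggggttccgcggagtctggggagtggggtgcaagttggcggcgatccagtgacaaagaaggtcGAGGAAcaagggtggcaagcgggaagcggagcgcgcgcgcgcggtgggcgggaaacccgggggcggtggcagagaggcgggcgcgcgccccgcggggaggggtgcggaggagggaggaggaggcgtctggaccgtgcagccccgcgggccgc
RefSeq windows were found for 8 of the 10 channel genes, all but Hvcn1 and Kcnk6. Trpv2 has 3 windows and the other 7 genes have 1 each, which gives 10 windows. GAGGAA on either strand was found in 6 of the 10 windows, and in 23.3% of the 32851 windows of all genes. These 6 belong to 5 genes (Kcnj2, Kcnk13, Kcna3, Trpv2 and Clic1), since 2 of the Trpv2 windows overlap and hold the same match. The AP-1 letters TGANTCA were found in 1 of the 10 windows, that of Clic1 (6.75% of all windows), and the NF-kB consensus in 3, of Kcnn4, Trpv2 and Clic1 (7.25%). A stricter form of the NF-kB motif was found in 0 of the 10 (0.356%), and the consensus was searched after this result was seen. Neither of the other motifs was found in the 3 windows printed, and a PU.1 match overlapped with another motif in 1 window, that of Clic1. A match of letters is a description and not a binding site.

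The other channel genes were not called after LPS in either condition. Kcnk6 (chr7:28921346-28932035, minus strand), which encodes TWIK-2, a potassium efflux channel of macrophages, was at 46.6 ± 4.24 CPM in CTR-PBS and 69.1 ± 14.8 in CTR-LPS (SD, n = 7 each), a log2 difference of 0.57 ± 0.23 (adjusted p = 0.0846). It was at 67.0 ± 25.5 CPM in ELS-PBS and 60.3 ± 11.6 in ELS-LPS, a log2 difference of -0.15 ± 0.26. Kcnn4 (chr7:24066915-24086115, plus strand), the calcium-activated channel KCa3.1, had log2 differences of 0.55 ± 0.42 and 0.76 ± 0.47 in CTR and ELS mice, with 95% intervals from -0.29 to 1.39 and from -0.19 to 1.70. Those of Hvcn1, uncertain through its overlap with Tctn1, were 0.39 ± 0.23 and 0.54 ± 0.26 (adjusted p = 0.300 and 0.192). Trpm7, a channel fused to a kinase that passes magnesium, zinc and calcium, was lower by mean in both conditions. It went from 53.5 ± 9.24 to 41.3 ± 5.80 CPM in CTR and from 46.0 ± 10.1 to 31.8 ± 5.33 CPM in ELS mice (SD), with adjusted p of 0.162 and 0.0787. Without the libraries of few genes the CTR difference of Trpm7 was called (log2 fold change -0.42, adjusted p = 0.0250).

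Trpv2, a calcium-permeable channel used by phagocytes, differed by -0.12 ± 0.22 and -0.07 ± 0.25 on the log2 scale after LPS, and Trpm2, which opens on ADP-ribose and oxidative stress, by 0.49 ± 0.51 and -0.38 ± 0.58. The 95% interval of Trpm2 reached from -0.54 to 1.52 in CTR and from -1.55 to 0.78 in ELS mice, wider than those of the other channel genes except Kcna3. Clic1 was at 411 ± 35.8 CPM in CTR-PBS and 463 ± 53.219 in CTR-LPS. In ELS mice it was at 386 ± 33.1 CPM with PBS, and the 5 ELS-LPS mice had 436, 441, 474, 481 and 822 CPM. The value of 822 CPM came from mouse P200_11.2_ELS_LPS. The log2 difference in ELS mice was 0.46 ± 0.18 (adjusted p = 0.0891), 0.24 without mouse P200_11.2_ELS_LPS (adjusted p = 0.463), and 0.54 without the libraries of few genes (adjusted p = 0.000811).

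**Figure D2:**
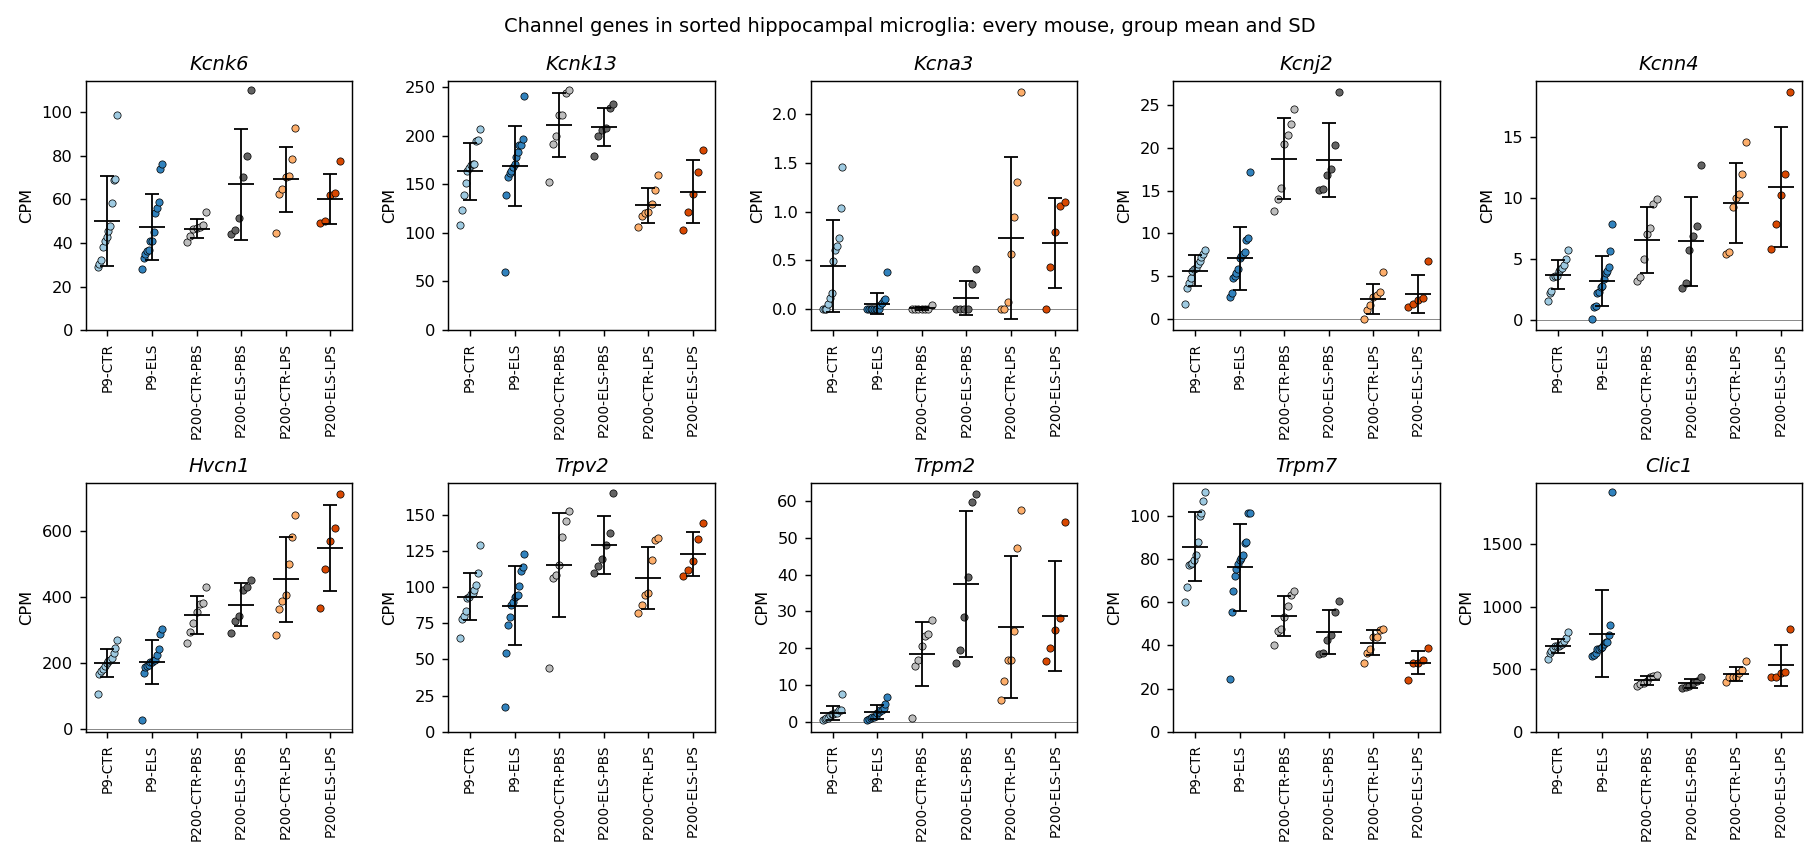
Level of each channel gene in every mouse, in CPM, by group. Points are mice, horizontal marks are group means and bars are 1 SD. Kcnj2 separates the PBS from the LPS mice, Trpm2 separates the P9 from the PBS mice with the exception of 1 CTR-PBS mouse at 1.07 CPM, and Kcna3 lies at or near 0 in most mice.

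Other genes of these families and pathways were read from fixed lists. Of 83 further potassium channel subunits 42 were tested, and 2 were called after LPS in CTR mice and 3 in ELS mice, all higher. Kcnd1, the most abundant, was not called (51.13 ± 23.2 CPM in CTR-LPS against 65.0 ± 27.4 in CTR-PBS, adjusted p = 0.580). Of 22 further TRP channel genes 9 were tested, with 2 higher in CTR and 1 higher in ELS mice. Of 19 further chloride and anion channel genes 16 were tested, with 3 higher and 1 lower in CTR and 4 higher in ELS mice. Among 7 NADPH oxidase subunits, 1 was higher in CTR and 3 in ELS mice. Both counts include Ncf1, the cytosolic organizer subunit, with log2 fold changes of 0.86 ± 0.21 (adjusted p = 0.00249) and 0.69 ± 0.24 (adjusted p = 0.0443). Of 5 store-operated calcium entry genes only Orai3 was called, in CTR mice (-0.73 ± 0.20, adjusted p = 0.00806), and it was at -0.65 ± 0.23 in ELS mice (adjusted p = 0.05004).

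Of the 5 genes on the list of ATP and ADP receptors, 1 was higher and 2 were lower after LPS in CTR mice, and 1 was higher and 1 lower in ELS mice. The gene that was higher, P2ry6, encodes a receptor of phagocytosis that responds to UDP. P2ry12, an ADP receptor of microglial processes that is also 1 of the microglia markers, fell by 0.62 ± 0.16 in CTR and by 0.58 ± 0.18 in ELS mice on the log2 scale (adjusted p = 0.00443 and 0.0271). P2ry6 rose by 1.02 ± 0.14 and 1.06 ± 0.16 (adjusted p = 1.04e-07 and 7.20e-07). P2ry13, a further ADP receptor, fell in CTR mice (-0.35 ± 0.10, adjusted p = 0.0082). Of 6 NLRP3 inflammasome genes 2 rose in each condition, among them Il1b, which is also in the list of LPS response genes, with log2 fold changes of 7.80 ± 0.71 and 8.70 ± 0.80. The 8 monocyte and neutrophil markers summed to a median of 6.82 CPM in CTR-PBS and 3.86 CPM in CTR-LPS, and to 6.49 CPM in ELS-PBS and 5.71 CPM in ELS-LPS. The range was 0.865 to 8.98 CPM in CTR-PBS and 2.00 to 8.46 CPM in CTR-LPS, and Retnlg was at 0 in all groups.

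The second question was how the channel genes differed between P9 and P200 microglia without LPS. Trpm2 rose most, 7.73-fold in CTR and 14.4-fold in ELS mice. Kcnj2 and Hvcn1 also rose, and Trpm7 and Clic1 fell, in both conditions. In CTR mice 7 of 10 channel genes were called (4 higher, 3 lower), against 44.1% of all tested genes, and in ELS mice 8 of 10 (6 higher, 2 lower), against 42.2%. DEGs were 3 of 10 in CTR (26.4% of tested genes) and 4 of 10 in ELS mice (26.2%). The CTR counts include Kcna3, which was lower and a DEG. It passed the filter only through mice of P9-CTR and CTR-LPS, so this call was not independent of the filter. The median log2 fold change of the channel genes was 0.34 in CTR and 0.73 in ELS mice, beside -0.09 and -0.01 over all tested genes. Without the libraries of few genes 8 were called in CTR mice, with Trpv2 in addition, beside 8344 of the 16510 genes then tested, and 6 in ELS mice, without Kcnk6 and Kcnn4, beside 7578 of 16510. DEGs in ELS mice were then 2 of 10, and they were 3 of 10 with edgeR's filterByExpr or with only the compared groups fitted.

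These ages differed in much besides the channels. The 7 neuron markers summed to a median of 105 CPM (49.6 to 134) in P9-CTR and 6.45 CPM (2.54 to 11.9) in CTR-PBS, and all 7 were lower at P200. The 6 border macrophage markers summed to a median of 724 CPM in P9-CTR and 7.41 CPM in CTR-PBS (6 of 6 lower). Most of the P9 sum was 1 gene, Mrc1, with a mean of 711 CPM in P9-CTR beside 5.91 for F13a1 and 4.36 for Cbr2. The 6 cell division markers went from a median of 940 CPM to 10.0 CPM (6 of 6 lower). Of the 6 astrocyte markers 5 were lower and Slc1a3 higher, and the 7 lymphocyte markers, whose 1 tested member was Cd79b, had medians of 153 and 45.6 CPM. The ELS groups had medians of 72.0 and 6.75 CPM for neuron, 733 and 5.44 CPM for border macrophage and 787 and 11.9 CPM for cell division markers. Of these, 5 of 7, 5 of 6 and 6 of 6 were lower at P200 in ELS mice. Of the 8 monocyte and neutrophil markers 1 was higher and 2 were lower at P200 in each condition, and their summed medians went from 18.6 to 6.82 CPM in CTR and from 20.8 to 6.49 CPM in ELS mice. Ccr2, a chemokine receptor of monocytes, went from 0.847 ± 0.762 in P9-CTR to 5.44 ± 2.39 CPM in CTR-PBS, whereas Cxcr2, a chemokine receptor of neutrophils, went from 14.2 ± 3.55 to 0.0218 ± 0.0577 CPM (SD). The 4 endothelial markers, of which 1 was higher and 2 were lower in each condition, had summed medians of 34.4 and 46.8 CPM in CTR and 38.2 and 56.0 CPM in ELS mice. The part of these differences in the channel values was not tested.

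Trpm2 (ENSMUSG00000009292, chr10:77743556-77806405, minus strand) had 0.567, 2.16 and 7.49 CPM as lowest, median and highest value in P9-CTR and 0.355, 2.42 and 6.86 CPM in P9-ELS mice. In CTR-PBS mice these values were 1.07, 20.6 and 27.8 CPM, and in ELS-PBS mice 16.0, 34.1 and 62.0 CPM. The ELS groups did not overlap. P9 and PBS mice without overlap were found for 2854 of the 16696 tested genes in CTR and for 1941 in ELS mice, and for 2 of the 10 channel genes in each, Kcnj2 and Clic1 in CTR and Trpm2 and Clic1 in ELS mice. In CTR the low value came from mouse P200_1.1_CTR_PBS, and the other 6 CTR-PBS mice had at least 15.13 CPM, above all P9-CTR mice. Trpm2 thus rose by 2.95 ± 0.46 on the log2 scale in CTR mice (SE; adjusted p = 6.00e-07), or 3.16 without mouse P200_1.1_CTR_PBS, and by 3.85 ± 0.46 in ELS mice (SE; adjusted p = 1.55e-09). Exons of Trpm2 overlap with those of antisense lncRNAs that were not counted, by 584 and 252 of its 12941 exon bases.

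Among the potassium channels, Kcnj2 had lowest, median and highest values of 1.67, 5.89 and 7.99 CPM in P9-CTR and 2.51, 7.12 and 17.12 CPM in P9-ELS mice. All CTR-PBS mice, at 12.6 CPM or more, were above the P9-CTR mice. The ELS-PBS mice, at 15.0 CPM or more, overlapped with P9-ELS only through mouse P9_19.2_ELS (17.12 CPM), one of the libraries of few genes. The next highest P9-ELS value was 9.51 CPM, below all ELS-PBS mice. On the log2 scale Kcnj2 rose by 1.74 ± 0.35 in CTR mice (adjusted p = 6.34e-05) and by 1.38 ± 0.36 in ELS mice (adjusted p = 0.00144). Kcnk13 rose in CTR mice, from 163 ± 29.2 to 211 ± 32.9 CPM (SD; log2 fold change 0.37 ± 0.14, adjusted p = 0.0308), and was at 169 ± 41.1 and 209 ± 19.5 CPM in ELS mice (0.31 ± 0.15, adjusted p = 0.0913). The CTR call was lost without any 1 of mice P200_5.1_CTR_PBS, P200_5.2_CTR_PBS, P200_18.1_CTR_PBS and P200_18.2_CTR_PBS (log2 fold change 0.33 to 0.36, adjusted p 0.0510 to 0.0731), and the ELS difference was called without mouse P9_53.2_ELS (0.36, adjusted p = 0.0425).

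Kcnk6 and Kcnn4 were called in ELS mice and not in CTR mice. Kcnk6 went from 47.3 ± 15.3 to 67.0 ± 25.5 CPM in ELS mice (log2 fold change 0.50 ± 0.20, adjusted p = 0.0434) and was at 50.1 ± 20.5 and 46.6 ± 4.24 CPM in CTR mice (-0.10 ± 0.20). Its ELS call was lost without any 1 of 10 mice (P9_9.2_ELS, P9_19.2_ELS, P9_19.3_ELS, P9_53.1_ELS, P9_53.2_ELS, P9_55.1_ELS and P9_55.2_ELS, P200_4.1_ELS_PBS, P200_11.1_ELS_PBS and P200_17.1_ELS_PBS), with adjusted p between 0.0522 and 0.269. The lowest of these log2 fold changes, 0.30, came without mouse P200_4.1_ELS_PBS. Kcnn4 went from 3.17 ± 2.07 to 6.44 ± 3.67 CPM in ELS mice (1.04 ± 0.38, adjusted p = 0.0222) and from 3.71 ± 1.19 to 6.52 ± 2.71 CPM in CTR mice (0.81 ± 0.37, adjusted p = 0.0662). The ELS call of Kcnn4 was lost without mouse P200_20.2_ELS_PBS (0.73, adjusted p = 0.141), and the CTR difference was called without mouse P9_52.2_CTR or mouse P200_8.1_CTR_PBS or P200_18.2_CTR_PBS (0.90 to 0.93, adjusted p 0.0431 to 0.0476). The differences between conditions are tested further on.

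Kcna3, tested only through mice of P9-CTR and CTR-LPS as said above, fell with age in CTR mice, on low counts. They summed to 111 over the 12 P9-CTR mice and to 1 over the 7 CTR-PBS mice, a ratio of 0.0164 (exact interval 0.000411 to 0.0931 for counting error only). The log2 fold change fitted across mice was -5.18 ± 1.40 (adjusted p = 0.00211), and -6.25 without mouse P200_5.2_CTR_PBS, the only one with a count (adjusted p = 0.00258). The P9-CTR values were 0, 0.324 and 1.46 CPM as lowest, median and highest. In ELS mice the counts were 15 over 13 P9 mice and 17 over 6 PBS mice, and the difference was not called (0.97 ± 1.06, adjusted p = 0.493). Kcna3 is also known from neurons, and the neuron markers were higher at P9, with the values given above. Their part in the Kcna3 value was not tested.

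The proton channel gene Hvcn1 (ENSMUSG00000064267, chr5:122344867-122382736, plus strand) rose from 199.99 ± 41.8 to 346 ± 58.09 CPM in CTR (log2 fold change 0.79 ± 0.20, adjusted p = 0.00137) and from 204 ± 66.1 to 377 ± 65.2 CPM in ELS mice (0.89 ± 0.21, adjusted p = 0.000506). Its exons share 2609 of 5939 bases with the antisense gene Tctn1. Reads of these genes cannot be told apart without strand, so the value is uncertain. Trpv2 (chr11:62465304-62491341, plus strand) rose in ELS mice from 87.2 ± 27.5 to 129 ± 20.06 CPM (0.57 ± 0.20, adjusted p = 0.0172), a call lost without mouse P200_2.1_ELS_PBS (0.49, adjusted p = 0.0604). In CTR mice it was at 93.4 ± 16.5 and 115 ± 36.1 CPM (0.30 ± 0.19, adjusted p = 0.206), with 1 low value of 44.4 CPM in mouse P200_1.1_CTR_PBS. Without that mouse the CTR difference was called (0.44, adjusted p = 0.0456).

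Trpm7 and Clic1 were the channel genes that fell with age in both conditions. Trpm7 (chr2:126633480-126718182, minus strand) had 59.9, 80.6 and 111 CPM as lowest, median and highest value in P9-CTR and 40.4, 53.32 and 65.2 CPM in CTR-PBS. In P9-ELS these were 24.4, 79.6 and 101 CPM and in ELS-PBS 35.9, 43.8 and 60.6 CPM. The groups overlapped in both conditions. The log2 fold changes were -0.68 ± 0.16 (adjusted p = 0.00054) and -0.73 ± 0.17 (adjusted p = 0.000419). Clic1 (ENSMUSG00000007041, chr17:35266900-35277725, plus strand) had 584, 689 and 799 CPM in P9-CTR and 364, 406 and 456 CPM in CTR-PBS, and 607, 681 and 1915 CPM in P9-ELS and 353, 379 and 440 CPM in ELS-PBS. These groups did not overlap in either condition. Clic1 fell by 0.74 ± 0.15 in CTR (adjusted p = 4.08e-05) and by 1.02 ± 0.16 in ELS mice (adjusted p = 3.92e-07) on the log2 scale. The value of 1915 CPM came from mouse P9_19.2_ELS. Without that mouse Clic1 fell by 0.84 in ELS mice (adjusted p = 3.31e-10), and it was then no DEG.

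**Figure D3:**
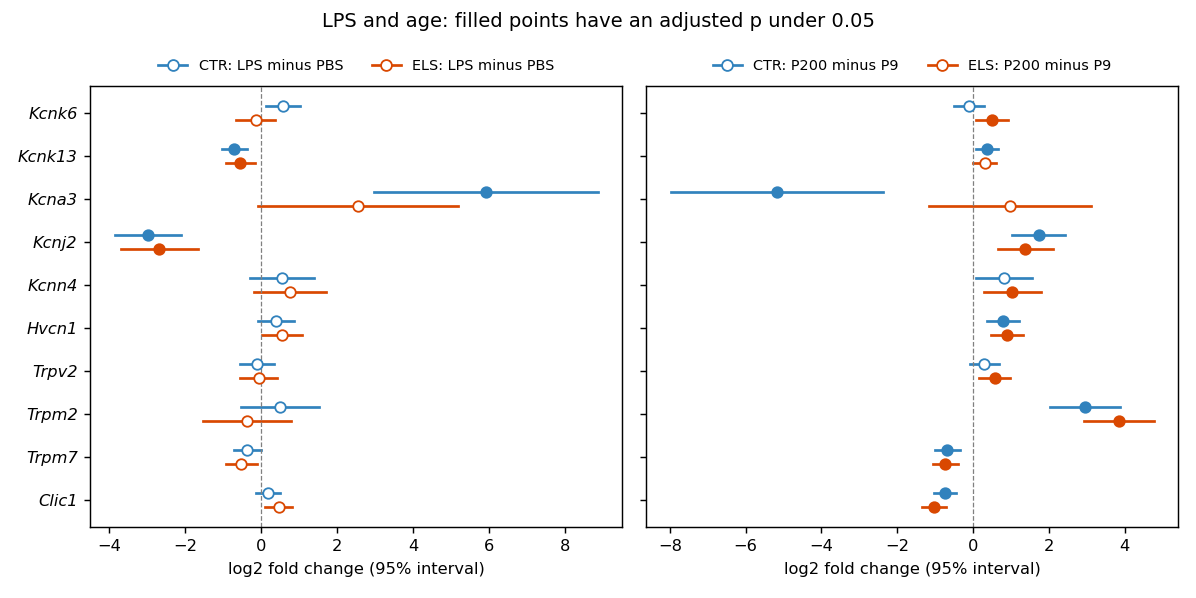
Log2 fold change of each channel gene with its 95% interval, for LPS minus PBS on the left and P200 minus P9 on the right, in CTR and ELS mice. Filled points have an adjusted p under 0.05, and Kcnj2 is filled on both sides, lower after LPS (-2.99 and -2.68) and higher with age (1.74 and 1.38).

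Of the 42 other potassium channel subunits tested, 2 were higher and 22 lower at P200 in CTR mice, and 2 were higher and 21 lower in ELS mice. Kcnd1, a voltage-gated subunit, was among those that rose (0.76 ± 0.30, adjusted p = 0.0329, and 0.93 ± 0.30, adjusted p = 0.0111). Kcnma1 and Kcnj16, the next in abundance, were at 4.12 ± 1.44 and 3.40 ± 2.22 CPM in P9-CTR and were not called. The other TRP channels had 0 higher and 5 lower of 9 in CTR and 1 higher and 4 lower in ELS mice. Mcoln1, a lysosomal cation channel, fell in CTR mice (-0.59 ± 0.22, adjusted p = 0.0278), and Trpv4, which responds to swelling, rose in ELS mice from 2.88 ± 3.96 to 11.5 ± 5.91 CPM (adjusted p = 0.00334). Of the 16 other anion channel genes, 1 was higher and 4 lower in CTR and 2 higher and 4 lower in ELS mice. Clcn4, a chloride-proton exchanger, rose in both (0.76 ± 0.10 and 0.65 ± 0.10, adjusted p = 8.77e-09 and 6.16e-07).

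The NADPH oxidase list had 4 higher and 1 lower of 7 in CTR and 3 higher and 2 lower in ELS mice. Ncf1 rose by 0.63 ± 0.18 and 1.07 ± 0.19 (adjusted p = 0.00437 and 5.04e-06) and Rac2, its small GTPase, fell by 0.92 ± 0.13 and 0.99 ± 0.14 (adjusted p = 6.79e-08 and 4.21e-08). The receptors for ATP and ADP had 3 of 5 higher and the store-operated calcium entry genes 2 of 5 higher in each condition. In both conditions P2ry12 rose (0.77 ± 0.14 and 0.52 ± 0.14), and so did P2ry13 (0.85 ± 0.08 and 0.62 ± 0.09). Of the 6 NLRP3 inflammasome genes 1 was higher in each condition.

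The third question was whether ELS changed the channel genes. None of the 10 was called at P9, in adult mice with PBS or in adult mice with LPS, and neither were their responses to LPS or age called as different between conditions. At P9 0 of 10 were called, against 0% of all tested genes, with 1 of 10 and 914 of all genes at an unadjusted p under 0.05. With PBS 0 of 10 were called, against 0.168%, with 2 of 10 and 1622 of all genes at an unadjusted p under 0.05. With LPS 0 of 10 were called, against 0%, with 0 of 10 and 798 of all genes at an unadjusted p under 0.05. DESeq2, edgeR's likelihood-ratio test and limma-voom also called 0 of 10 in each. The median log2 difference of the 10 genes was -0.03, 0.05 and 0.17, beside 0.00, 0.01 and -0.01 over all tested genes. These comparisons share mice with those of LPS and age, so their values are given side by side only.

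At P9 and with PBS the widest differences by size were those of Kcna3, on few counts, and with LPS its log2 difference was -0.12. At P9 it was lower by mean in P9-ELS (15 counts over 13 mice) than in P9-CTR (111 counts over 12 mice), a ratio of 0.130 with an exact interval of 0.0703 to 0.223 for counting error only. Across mice the unadjusted p was 0.0027 and the adjusted p 0.858. The neuron markers, at a median of 72.0 CPM in P9-ELS (30.8 to 108) and 105 CPM in P9-CTR (49.6 to 134), differed in the same direction, and their part was not tested. With PBS the Kcna3 counts were 17 in ELS and 1 in CTR mice (adjusted p = 0.399).

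Trpm2 was at 37.6 ± 19.8 CPM in ELS-PBS (SD, n = 6) and 18.4 ± 8.75 CPM in CTR-PBS (SD, n = 7), a log2 difference of 1.03 with a 95% interval from -0.03 to 2.1005 (adjusted p = 0.542). Without mouse P200_1.1_CTR_PBS the difference was 0.82 (adjusted p = 0.874). Kcnk6 was 0.52 higher on the log2 scale in ELS-PBS, with an interval from 0.05 to 0.99 (unadjusted p = 0.0306, adjusted p = 0.426). Its highest ELS-PBS value was 110 CPM beside a median of 60.7 CPM, against 40.4 to 54.0 CPM in CTR-PBS, and the groups overlapped. Kcnj2 and Kcnk13, the genes called after LPS in both conditions, were nearly equal by mean between CTR-PBS and ELS-PBS. Kcnj2 was at 18.8 ± 4.70 and 18.6 ± 4.33 CPM, with an interval of the log2 difference from -0.85 to 0.83, and Kcnk13 at 211 ± 32.9 and 209 ± 19.5 CPM, with an interval from -0.35 to 0.32. The interval was thus narrower for Kcnk13.

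At P9 the intervals of the well-counted genes were narrow, but they treat mice of a nest as independent. The labels do not say which mice shared a nest. If the leading part of each mouse number marks the nest, the 12 P9-CTR mice came from 5 nests and the 13 P9-ELS mice from 4. ELS was given to whole nests, so these intervals can overstate the precision. That of Kcnk13 reached from -0.19 to 0.29, that of Trpm7 from -0.43 to 0.10, that of Clic1 from -0.05 to 0.43 and that of Hvcn1 from -0.33 to 0.38. Without mouse P9_19.2_ELS the difference of Clic1 went from 0.19 to 0.00. With LPS, Trpm7 had the smallest unadjusted p, 0.062, with a log2 difference of -0.37 and an interval from -0.77 to 0.02 (adjusted p = 1).

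**Figure D4:**
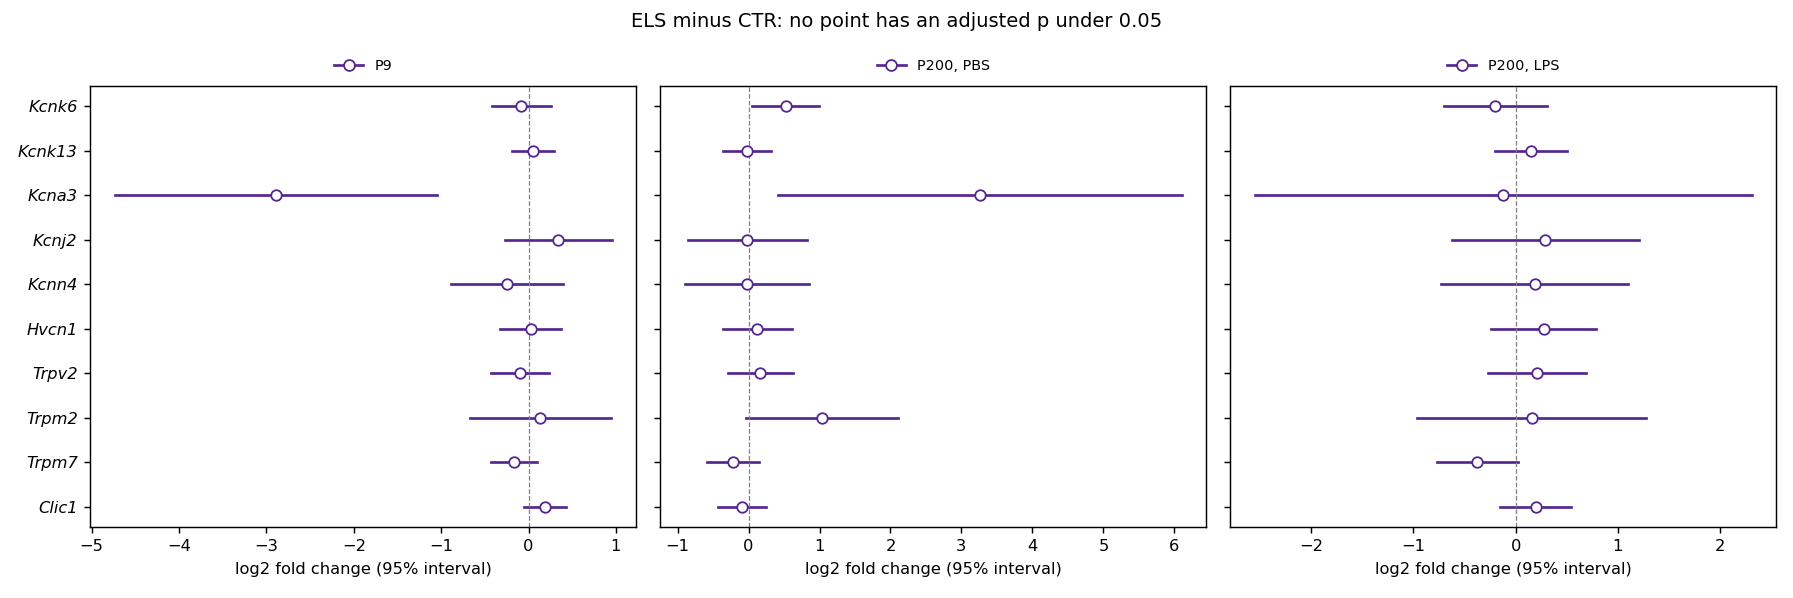
Log2 difference ELS minus CTR of each channel gene with its 95% interval at P9, at P200 with PBS and at P200 with LPS. No point has an adjusted p under 0.05, and the widest intervals belong to Kcna3. The horizontal scales of the panels differ.

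The tests of the difference itself gave no call for a channel gene. For the response to LPS, 0 of 10 differed between conditions (0% of all tested genes), with 1 of 10 and 980 of all genes at an unadjusted p under 0.05. That gene was Kcnk6, whose LPS difference was lower in ELS than in CTR mice by 0.72 ± 0.34 on the log2 scale (interval -1.41 to -0.03, adjusted p = 0.811). The LPS response of Kcnj2 differed by 0.30 ± 0.62 (interval -0.94 to 1.55) and that of Kcnk13 by 0.16 ± 0.24 (interval -0.33 to 0.66). For age, 0 of 10 differed between conditions (0.0299% of all tested genes). Kcnk6 (0.61 ± 0.29, adjusted p = 0.47) and Kcna3 (6.15 ± 1.72, adjusted p = 0.258) had an unadjusted p under 0.05. The age difference of Trpm2 was larger by mean in ELS mice, by 0.90 ± 0.67 with an interval from -0.43 to 2.24 (adjusted p = 0.683), and that of Kcnn4 differed by 0.22 ± 0.54.

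For the 3 channel genes with the largest range of group means, the genes with the most similar pattern over the 50 mice were looked up by Pearson's r of log2 CPM. For Trpm2 these were Padi2 (r = 0.93) and Mob3a (r = 0.89). For Kcnj2 the first was H2aw (r = 0.81), and for Kcna3 they were Wnk1 and Cgas (r = 0.52 each). The 50 points share 6 groups, so these values include the differences in age and LPS described above, and they are given as a description only.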

How the data were processed

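Raw counts per gene of 50 mice were used as deposited, without normalization. Per the labels and the study's methods the authors made them from poly-A libraries with bcl2fastq 2.20, cutadapt 2.10, STAR, the genome build GRCm39 and HTSeq 0.11.0, counting unique reads within exons. The annotation release and the strand setting are not given in the sources used here. Of the 53700 genes, 52610 were found in a GENCODE annotation of GRCm39, which gave positions and exon lengths. No pair of libraries of a group differed by no more than sampling noise.

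Counts were scaled with TMM in edgeR 4.0.16 (R 4.3.3). The filter kept the 16696 genes that reached 1 CPM in more than 2 mice. The 6 group means were fitted to all mice, and each contrast was examined by edgeR's quasi-likelihood F-test, with p adjusted after Benjamini and Hochberg over all tested genes. Log2 CPM used a prior count of 2. Intervals are at 95%. On simulated data for the CTR LPS comparison with 16696 genes the test recovered 163 of 200 genes (81.5%) changed by a log2 fold of 2, with 3 false calls. Only genes with a mean above 1 CPM were changed, which leaves out Kcna3. Smaller changes were not simulated, and counts were drawn without nests. Total counts of 5152838 to 42231258 leave single counts for Kcna3, and intervals of summed counts cover counting error only. Separate mice are the replicates.

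The 10 genes were named in all comparisons, and of each list the 3 tested genes with the highest mean CPM could be named. Members, lists and tests were chosen with earlier results of these data known. Alternatives were edgeR's likelihood-ratio and robust tests, DESeq2 1.42.0, its size factors, other filters, fits of the compared groups alone, fits without the libraries of few genes, limma 3.58.1 with voom and nest as random effect, a nest block, and leaving out each mouse. Python 3.11.15 with pandas 2.3.3, numpy 2.4.6, scipy 1.17.1 and matplotlib 3.10.9 was used for tables and figures. Upstream sequences came from RefSeq on GRCm38.p6. No protein sequences were used here. One item among the genes of similar pattern is not reported here.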

Additional observations from a re-analysis of the deposited data

Results flagged for a closer look

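Of 40 sets of values (10 genes in the 4 groups of 4 to 10 mice), 4 had a lowest or highest mouse whose gap to its neighbour was large for the range of the group by Dixon's criterion, where chance gives about 1 in 20. Kcnj2 in ELS-LPS was highest in mouse P200_4.2_ELS_LPS, with 6.73 CPM against 2.46 CPM in the next mouse. Trpv2 in CTR-PBS was lowest in mouse P200_1.1_CTR_PBS, with 44.4 CPM against 106 CPM. This library has 12854 genes with a count and also the lowest Trpm2 value of its group. Clic1 in ELS-LPS was highest in mouse P200_11.2_ELS_LPS, with 822 CPM against 481 CPM. Kcna3 in CTR-PBS was highest in mouse P200_5.2_CTR_PBS, with 0.0389 CPM, which is a single count while the other mice had none.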

How the results depend on the processing

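Counts of called channel genes stayed within 1.5 times of those reported under the alternatives, with these exceptions. For age in ELS mice 5 instead of 8 genes were called when only the compared groups were fitted. Over all 16696 tested genes 5826 instead of 7045 were then called. For LPS in ELS mice 1 instead of 2 was called with no filter on low counts and also with edgeR's filterByExpr, where Kcnk13 was lost. Over all genes 1676 of 36192 and 2095 of 18009 were then called, against 2059 of 16696 in the main fit. The cause was not tested. Leaving out single mice gave 6 to 8 calls for age in CTR, 7 to 8 for age in ELS, 3 to 3 for LPS in CTR and 1 to 2 for LPS in ELS mice, and 0 to 0 for the comparisons of ELS with CTR and both interactions. With the nest number (the number before the point in the mouse label, which the labels do not define) as a replicate block, 2 genes were called for LPS in CTR (Kcnk13 and Kcnj2), 2 in ELS mice (the same names) and 0 for the interaction. Of all 16696 genes this fit called 2053 in CTR mice, 2000 in ELS mice and 0 for the interaction. In this fit Kcna3 had a log2 fold change of 5.57 and an adjusted p of 0.0525 in CTR mice. At P200, PBS and LPS mice that share a nest number deviated little together over all tested genes (correlations from -0.04 to 0.10 over 15 pairs). For LPS the number was therefore not taken as pairing. Mice that share a nest number at P9 were not compared in this way, nor were the channel genes alone. Of 534 values of called genes under alternatives 35 lost their call and 0 changed direction, and of 2066 values of genes not called 13 gained one. Kcna3 and, in some mice, Kcnj2 rest on few counts, and this limits their precision. Over all tested genes, ELS and CTR mice with PBS differed in 28 genes, and in 215 with the likelihood-ratio test, 170 with DESeq2, 6 with DESeq2 size factors, 2 with either other filter, 1 without the libraries of few genes and 0 with the compared groups alone or limma-voom. None of these included a channel gene.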
